A study of Mus musculus with 31 samples.

Results

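Serum amyloids and other acute-phase genes were examined in lactating mammary gland by 9 members, *Saa1*, *Saa2*, *Saa3*, *Orm1*, *Orm2*, *Lcn2*, *Lrg1*, *Slpi* and *Hp*, among the 55379 genes counted. They were chosen because earlier results of these data showed them high in some of the fluoxetine libraries and not in others. Their fluoxetine levels are therefore given as a description and were not tested. All 9 had enough counts to be among the 14362 genes tested. The mammary glands came from 31 C57BL/6J dams on lactation day 10 (L10), with RNA from each dam sequenced as 1 library. The diets were a breeder diet with 4 mg/kg folic acid (FA) and an FA diet with 24 mg/kg. Dams received daily intraperitoneal injections of saline or of 20 mg/kg fluoxetine, a selective serotonin reuptake inhibitor, from embryonic day 13 until L10. By the sample labels, 7 dams belonged to breeder diet + fluoxetine and 8 dams to each of the groups breeder diet + saline, FA diet + fluoxetine and FA diet + saline. The methods text exchanges the sizes of the fluoxetine groups, and the labels were followed here. Whole gland RNA was used, so that a difference in the number of cells of a type and a difference in RNA per cell cannot be told apart.

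Acute-phase proteins are secreted in quantity during infection, injury and inflammation, mostly by the liver, and several are also made by epithelia. The liver genes are classically switched on by interleukin 6, interleukin 1 and related cytokines, through STAT3, C/EBP and NF-κB factors. In the mammary gland several of them, *Lcn2* and *Saa3* among these, are known from mastitis and from the involution that follows weaning.

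In the GRCm39 genome the *Saa* members lie near one another, as do the *Orm* members. *Saa1* (ENSMUSG00000074115, chr7:46389916-46392547, minus strand), *Saa2* (ENSMUSG00000057465, chr7:46401214-46403737, plus strand) and *Saa3* (ENSMUSG00000040026, chr7:46361422-46365576, minus strand) are on chromosome 7. *Orm1* (ENSMUSG00000039196, chr4:63261052-63272189) and *Orm2* (ENSMUSG00000061540, chr4:63280686-63284115) are on the plus strand of chromosome 4. *Lcn2* (ENSMUSG00000026822, chr2:32274645-32278264), *Slpi* (ENSMUSG00000017002, chr2:164195990-164231015), *Lrg1* (ENSMUSG00000037095, chr17:56426283-56429001) and *Hp* (ENSMUSG00000031722, chr8:110301759-110305804) are on the minus strand. The transcripts of *Saa1* and *Saa2* were 94.8% identical over 649 aligned bases, and those of *Orm1* and *Orm2* 91.0% over 775. No run of 100 bases was shared by *Saa1* and *Saa2*. As 47 such runs were shared by *Orm1* and *Orm2*, part of the reads of the *Orm* pair may have been uncertain in origin. Shorter shared stretches were not counted for either pair. *Orm1* overlaps *Gm11212*, which had 118 counts in all libraries, and *Slpi* overlaps *Matn4*, which had 291.

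The 150 bases before the annotated transcript start are shown for both gene pairs, since within each pair the same letters sit at different distances from that annotated start. Capitals mark letters of the C/EBP-type motif TTNCNNAA, searched on both strands, and in *Orm2* also TATAAA. They are *Saa1* at chr7:46392548-46392697 (minus strand), *Saa2* at chr7:46401064-46401213 (plus strand), *Orm1* at chr4:63262602-63262751 (plus strand) and *Orm2* at chr4:63280536-63280685 (plus strand), all in GRCm39.
Saa1: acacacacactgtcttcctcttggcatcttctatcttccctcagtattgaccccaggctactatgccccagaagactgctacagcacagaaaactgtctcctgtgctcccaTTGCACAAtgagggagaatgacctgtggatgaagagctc
Saa2: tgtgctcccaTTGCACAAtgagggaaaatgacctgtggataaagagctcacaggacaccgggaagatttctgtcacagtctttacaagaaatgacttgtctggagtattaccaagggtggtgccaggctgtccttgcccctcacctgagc
Orm1: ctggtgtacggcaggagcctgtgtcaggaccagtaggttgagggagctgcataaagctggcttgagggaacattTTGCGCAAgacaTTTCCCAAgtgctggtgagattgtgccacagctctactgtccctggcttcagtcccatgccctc
Orm2: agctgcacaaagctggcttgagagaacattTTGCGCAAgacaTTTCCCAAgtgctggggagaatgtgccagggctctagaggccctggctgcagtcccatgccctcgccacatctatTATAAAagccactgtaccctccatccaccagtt
In *Saa1* the motif covered bases -39 to -32 from the start, and in *Saa2* bases -140 to -133. In *Orm1* there were matches at -76 to -69 and at -64 to -57, and in *Orm2* at -120 to -113 and at -108 to -101. The alignable stretch of these regions was 95.9% identical over 49 bases in *Saa1* and *Saa2*, and 90.6% over 106 bases in *Orm1* and *Orm2*. The transcripts had 757 bases for *Saa1*, 652 for *Saa2*, 825 for *Orm1* and 775 for *Orm2*. In each pair the letters lay nearer the start of the longer transcript. The distances depend on where each transcript is annotated to begin, which was not checked. They therefore do not show that the promoters of a pair differ. From 250 bases before to 50 after the start, the C/EBP letters were present in 7 of 9 members and in 40.5% of 21751 protein-coding genes. The STAT letters TTCNNNGAA were in 0 of 9 members and 8.81% of genes. The TATA box was in *Orm2* and in 13.2% of genes, and a kappaB motif was in *Lcn2* and in 4.87%. The *Orm1* stretch shown ends with the letters tcccatgccctc, which in *Orm2* lie before TATAAA. The absence of TATAAA from the *Orm1* stretch shown is therefore not a difference at aligned bases. These matches describe letters and not binding.

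Total counts ranged from 15412542 to 36000439 per library, with a median of 22299952. Levels are CPM (counts scaled to a fixed library total), scaled by edgeR's TMM method. In 29 libraries the 20 most abundant genes, with *Wap* and the caseins of milk foremost, held at least 70.1% of the counts. They held 60.5% in breeder diet + fluoxetine replicate 13 and 39.3% in FA diet + fluoxetine replicate 3. Summed CPM of 9 markers of milk-secreting luminal cells was 318970 and 58758 in these libraries, below the 16 saline libraries, which ranged from 488190 to 971190. Both were also the extremes of several members, so values are given with and without them.

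*Lcn2*, a lipocalin that binds bacterial iron carriers, and *Orm1*, an orosomucoid that carries lipophilic compounds, were by far the most abundant members. Per kilobase of transcript, the median level over the 31 libraries was 518 CPM for *Lcn2* and 274 CPM for *Orm1*, followed by 12.9 for *Orm2*, 5.52 for *Saa1*, 5.45 for *Slpi*, 3.79 for *Hp*, 3.47 for *Lrg1*, 2.01 for *Saa3* and 1.75 for *Saa2*. From *Saa1* down, neighbours in this order differed by less than their spread between libraries. The plot of levels by group shows that libraries of the same group differed widely, by 804 times for *Saa2* in breeder diet + fluoxetine and from 0 to 307 CPM in FA diet + fluoxetine, and much less for *Orm1* and *Lcn2*.

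**Figure D1:**
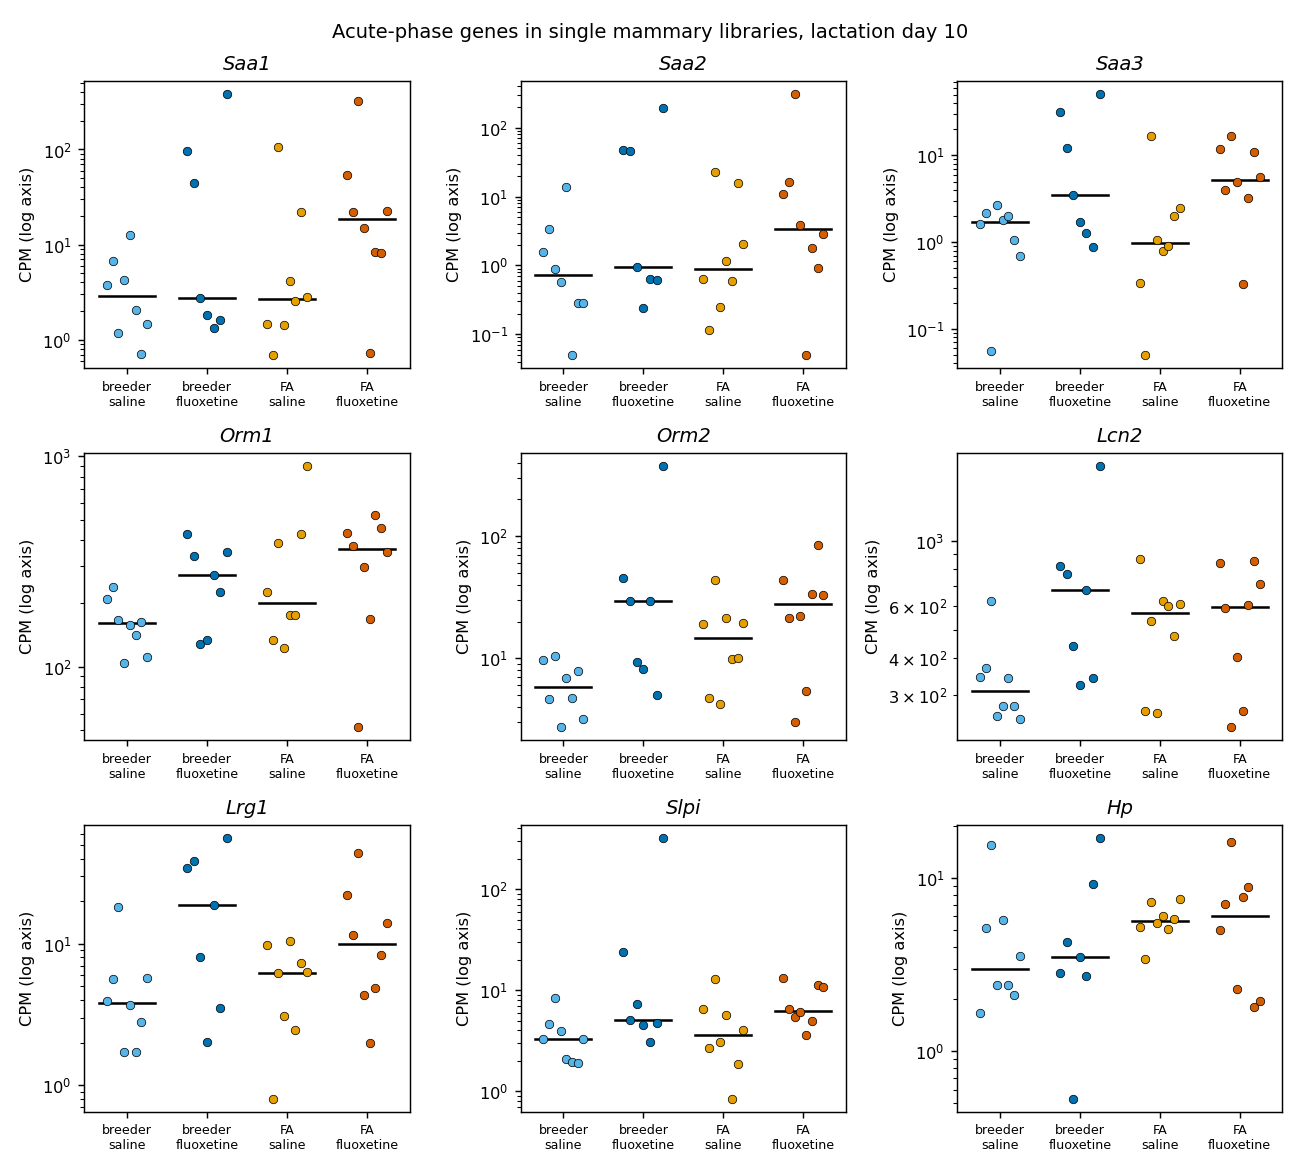
CPM (log axis) of the 9 acute-phase genes in each of 31 libraries, by group, with the group median as a line; counts of 0 are drawn at 0.05 CPM. In both fluoxetine groups a few libraries lie far above the rest, for example 382 CPM of *Saa1* in breeder diet + fluoxetine replicate 13, and *Hp* overlaps between all groups.

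The serum amyloids bind lipids and travel on high density lipoprotein, and *Saa3* is the form best known from tissues outside the liver. *Saa1* ranged from 0.706 CPM over a median of 2.90 to 12.8 in breeder diet + saline, and from 1.32 over 2.72 to 382 in breeder diet + fluoxetine. On the FA diet it ranged from 0.690 over 2.69 to 107 with saline, and from 0.719 over 18.5 to 320 with fluoxetine. The groups overlapped at the low end, and 11 of 15 fluoxetine libraries were above the median of all saline libraries. The libraries above 40 CPM were breeder diet + fluoxetine replicates 2, 5 and 13 (95.2, 44.3 and 382 CPM), FA diet + fluoxetine replicates 1 and 3 (53.7 and 320 CPM) and, among saline dams, FA diet + saline replicate 3 (107 CPM).

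*Saa2* was high in mostly the same libraries, at mostly lower levels. Its lowest, median and highest values were 0, 0.730 and 13.7 CPM in breeder diet + saline and 0.240, 0.947 and 193 CPM in breeder diet + fluoxetine. With FA diet they were 0.115, 0.890 and 23.0 CPM with saline, and 0, 3.33 and 307 CPM with fluoxetine. FA diet + fluoxetine replicate 3 was the highest, and breeder diet + fluoxetine replicates 13, 2 and 5 followed with 193, 47.7 and 46.4 CPM. In the 13 libraries with at least 50 counts of both genes, the ratio of *Saa1* to *Saa2* counts ranged from 0.929 to 8.06, with a median of 1.99. It was 1.98 in breeder diet + fluoxetine replicate 13, where 12012 and 6069 reads were counted, and 1.04 in FA diet + fluoxetine replicate 3, with 18334 and 17567 reads. In FA diet + saline replicate 3 it was 4.64, so the pair did not keep a fixed proportion.

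*Saa3* was highest in breeder diet + fluoxetine replicates 13 and 2, with 50.8 and 31.3 CPM. Its medians were 1.71 CPM in breeder diet + saline (0.0555 to 2.69), 3.49 in breeder diet + fluoxetine (0.874 to 50.8), 0.974 in FA diet + saline (0 to 16.9) and 5.26 in FA diet + fluoxetine (0.327 to 16.8). The highest saline value came from FA diet + saline replicate 3, the saline library that was also highest for *Saa1* and *Saa2*.

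*Orm1* varied least of the members with *Lcn2* and was the member that did not exceed the saline range in any fluoxetine library. It ranged from 104 over a median of 161 to 240 CPM in breeder diet + saline, and from 129 over 273 to 425 in breeder diet + fluoxetine. On the FA diet the values were 123, 201 and 900 CPM with saline and 51.9, 363 and 525.8 CPM with fluoxetine. The highest value belonged to FA diet + saline replicate 12, where *Saa1* was at 2.80 CPM, close to the saline median of 2.69.

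*Orm2* had a wider range than *Orm1*. Lowest, median and highest values were 2.75, 5.81 and 10.4 CPM in breeder diet + saline, 5.04, 29.3 and 376 in breeder diet + fluoxetine, 4.24, 14.6 and 43.6 in FA diet + saline, and 2.99, 27.7 and 85.1 in FA diet + fluoxetine. The ratio of *Orm1* to *Orm2* counts, in 30 libraries with at least 50 counts of both, ranged from 0.929 to 51.2 with a median of 16.9. The lowest ratio was that of breeder diet + fluoxetine replicate 13, the library in which *Orm2* reached *Orm1* (11819 and 10982 reads).

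*Lcn2* ranged from 250 over a median of 309 to 624 CPM in breeder diet + saline and from 324 over 682 to 1788 in breeder diet + fluoxetine, where all 7 libraries were above the saline median of that diet. With FA diet the values were 262, 567 and 869 CPM with saline and 235, 599 and 851 CPM with fluoxetine, and the groups overlapped throughout. *Slpi*, an inhibitor of leukocyte serine proteases, had 1 extreme value, 324 CPM in breeder diet + fluoxetine replicate 13. The next highest was 23.9 CPM in breeder diet + fluoxetine replicate 2, and group medians lay between 3.27 and 6.26 CPM. In spite of these low medians, 14 of 15 fluoxetine libraries were above the median of the 16 saline libraries, 3.27 CPM.

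*Lrg1*, a leucine-rich glycoprotein that acts on TGFβ signalling in blood vessels, was the member with the most fluoxetine libraries above the saline range, 6 of 15. Its medians were 3.80 CPM in breeder diet + saline (1.72 to 18.2), 18.8 in breeder diet + fluoxetine (2.02 to 56.1), 6.26 in FA diet + saline (0.806 to 10.5) and 9.92 in FA diet + fluoxetine (1.99 to 43.4). *Hp*, which binds free haemoglobin, differed least between saline and fluoxetine libraries. Its medians were 2.98, 3.51, 5.68 and 6.04 CPM in the same order of groups, and 6 of 15 fluoxetine libraries were above the saline median of 5.19 CPM. Its values beyond the highest saline library (15.5 CPM) were 17.1 CPM in breeder diet + fluoxetine replicate 13 and 16.2 CPM in FA diet + fluoxetine replicate 3.

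Fluoxetine libraries above the highest of the 16 saline libraries numbered 2 of 15 for *Saa1*, 4 for *Saa2*, 2 for *Saa3*, 0 for *Orm1*, 4 for *Orm2*, 1 for *Lcn2*, 6 for *Lrg1*, 3 for *Slpi* and 2 for *Hp*. There were 4 of 9 members with 3 or more such libraries, and 16.9% of the 14362 genes had 3 or more. Since the members were chosen by this contrast, nothing is read from that count. On plain total counts in place of TMM, 7 fluoxetine libraries were above the highest saline library for *Lcn2*, and 0 remained the number for *Orm1*.

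The fitted fluoxetine differences, averaged over diets, were 2.94 on the log2 scale for *Saa1* (standard error (SE) 0.908), 3.49 for *Saa2* (SE 1.07), 2.23 for *Saa3* (SE 0.641), 2.21 for *Orm2* (SE 0.538), 2.28 for *Slpi* (SE 0.568) and 1.67 for *Lrg1* (SE 0.472). They were 0.60 for *Lcn2* (SE 0.224), 0.39 for *Orm1* (SE 0.273) and 0.22 for *Hp* (SE 0.370). These values chose the members and were not tested. At an FDR of 10%, edgeR's quasi-likelihood test called 3 of 14362 genes (0.0209%), which is given as the background of all genes. Without breeder diet + fluoxetine replicate 13 the difference fell to 1.33 for *Orm2* and to 0.92 for *Slpi*. Without FA diet + fluoxetine replicate 3 it fell to 1.95 for *Saa2* and to 2.13 for *Saa1*. With both left out, the log2 differences were 1.31 for *Saa1*, 1.28 for *Saa2*, 1.68 for *Saa3*, 0.43 for *Orm1*, 1.41 for *Orm2*, 0.46 for *Lcn2*, 1.20 for *Lrg1*, 0.95 for *Slpi* and -0.27 for *Hp*.

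The high values were gathered in few libraries. With the 5 highest of the 31 libraries marked for each member, 45 marks were given, 19 to breeder diet + fluoxetine, 17 to FA diet + fluoxetine, 8 to FA diet + saline and 1 to breeder diet + saline. Breeder diet + fluoxetine replicate 13 held 8 marks (all members but *Orm1*), replicate 2 of that group held 7, and replicate 5 held 3. In FA diet + fluoxetine, replicate 1 held 6, replicate 3 held 5 and replicate 10 held 4. FA diet + saline replicate 3 held 5, for *Saa1*, *Saa2*, *Saa3*, *Orm2* and *Slpi*. Breeder diet + fluoxetine replicate 9 held 1 and FA diet + fluoxetine replicate 6 held 2, and the remaining 7 fluoxetine libraries held 0. Among these was FA diet + fluoxetine replicate 5, which was among the 5 lowest for *Saa1*, *Saa2*, *Saa3* and *Lrg1*.

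**Figure D2:**
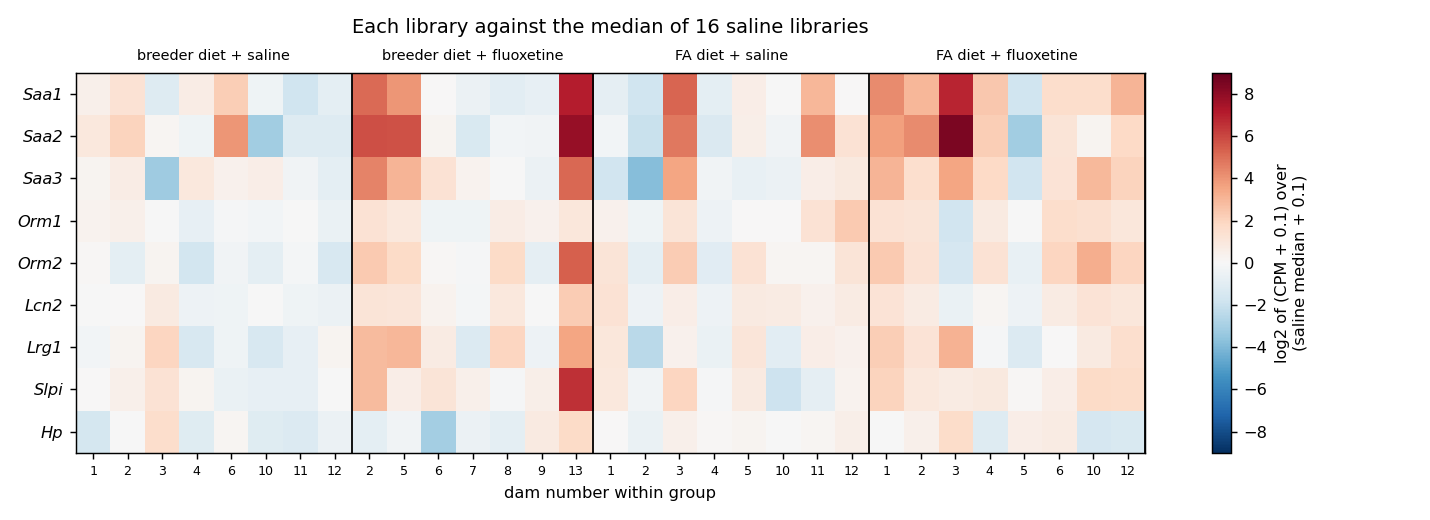
Each of the 31 libraries (columns, by group and replicate number) against the median of the 16 saline libraries for the 9 members (rows), as log2 of CPM + 0.1. Breeder diet + fluoxetine replicate 13 is high for all 9 members, and FA diet + fluoxetine replicate 3 is high for the serum amyloids, *Lrg1* and *Hp* and low for *Orm1*, *Orm2* and *Lcn2*.

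The libraries with a low share of milk transcripts differed from each other in their members. In breeder diet + fluoxetine replicate 13 *Saa1*, *Orm2*, *Lcn2* and *Slpi* were all at their maximum. In FA diet + fluoxetine replicate 3 *Saa1* and *Saa2* were at 320 and 307 CPM, while *Orm1* (51.9 CPM), *Orm2* (2.99 CPM) and *Lcn2* (235 CPM) were at or near their lowest. That library had the largest scaling factor of TMM, 3.04. On plain total counts its *Orm1* was 157 CPM and 21st of 31 libraries, its *Orm2* 9.04 CPM and 18th, and its *Lcn2* 710 CPM and 7th, against a saline median of 170 CPM for *Orm1*, 7.47 for *Orm2* and 345 for *Lcn2*. The low ranks of all 3 genes in this library thus depend on the scaling. *Saa1*, *Saa2*, *Lrg1* and *Hp* ranked first of 31 in it on plain total counts.

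Whether the members moved together was examined first in the 16 saline libraries, since the choice of the members named fluoxetine libraries only. Log2 CPM were centred on the group means. Of the 36 pairs, 34 had a Spearman's rho above 0, with a median of 0.440 (-0.188 to 0.791). The share of pairs of other genes above 0, or past the test below, was not counted. The mean rho of a gene with the members had a median of 0.0016 over all genes tested and a 99th percentile of 0.396. For the members, the mean rho with the other members ranged from 0.230 (*Saa3*) to 0.540 (*Saa2*). After adjustment over 36 pairs, 4 passed an adjusted p of 0.05 in a two-sided permutation test within diet. *Saa1* and *Saa2* had rho = 0.79 (permutation p = 0.00073, adjusted p = 0.0239) and Pearson's r = 0.87 (permutation p = 9.0e-05, adjusted p = 0.00324), and r was 0.80 without the 2 libraries farthest from the median of *Saa1*. *Saa1* and *Saa3* had rho = 0.75 (permutation p = 0.00175, adjusted p = 0.0239) and r = 0.79 (permutation p = 0.00093, adjusted p = 0.0167), and r was 0.65 without 2 libraries. *Orm2* and *Lcn2* had rho = 0.74 (permutation p = 0.00199, adjusted p = 0.0239) and r = 0.72 (permutation p = 0.00399, adjusted p = 0.0287), and r was 0.74 without 2 libraries. *Saa2* and *Orm1* had rho = 0.71 (permutation p = 0.00334, adjusted p = 0.0301), and their r of 0.59 did not pass after adjustment (permutation p = 0.0224, adjusted p = 0.101; 0.65 without 2 libraries). *Lrg1* and *Hp* passed for r only, 0.70 (permutation p = 0.00157, adjusted p = 0.0188), with rho = 0.59 (permutation p = 0.0167, adjusted p = 0.1003), and r fell to 0.49 without 2 libraries. *Lcn2* and *Lrg1* likewise passed for r only, 0.73 (permutation p = 0.00339, adjusted p = 0.0287), with rho = 0.64 (permutation p = 0.0114, adjusted p = 0.0824), and r was 0.65 without 2 libraries. In these libraries the rho with the total count was -0.376 for *Saa1*, -0.459 for *Saa2* and -0.297 for *Saa3*. It was between -0.309 and 0.065 for the other members. The part of depth in these pairs was not tested.

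In the 15 fluoxetine libraries, where the pairs are described without a test, the median rho was 0.496 (-0.193 to 0.964). Closest were *Saa1* and *Saa2* (0.96), *Orm2* and *Lcn2* (0.96), *Saa1* and *Saa3* (0.93) and *Saa2* and *Saa3* (0.89). The rho of the serum amyloids was 0.82 to 0.87 with *Lrg1* and 0.34 to 0.62 with *Orm1*, *Orm2* and *Lcn2*, which had pairwise values of 0.84 to 0.96. This separation rested on the libraries with a low share of milk transcripts. Without both, the serum amyloids had 0.77 to 0.80 with *Lrg1* and 0.58 to 0.80 with *Orm1*, *Orm2* and *Lcn2*, and *Saa2* and *Orm1* moved from 0.34 to 0.68. The 8 pairs with *Hp* had a median of 0.045 over the 15 libraries. Without both libraries of low share, the 28 pairs without *Hp* had a median rho of 0.739 and the 8 pairs with *Hp* a median of -0.275. In the 16 saline libraries *Hp* was not apart in this way. There the pairs with *Hp* had a median of 0.394 (0.174 to 0.591), and those without *Hp* a median of 0.474. All libraries of a group share the diet and drug, and the members share each library's depth and scaling.

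**Figure D3:**
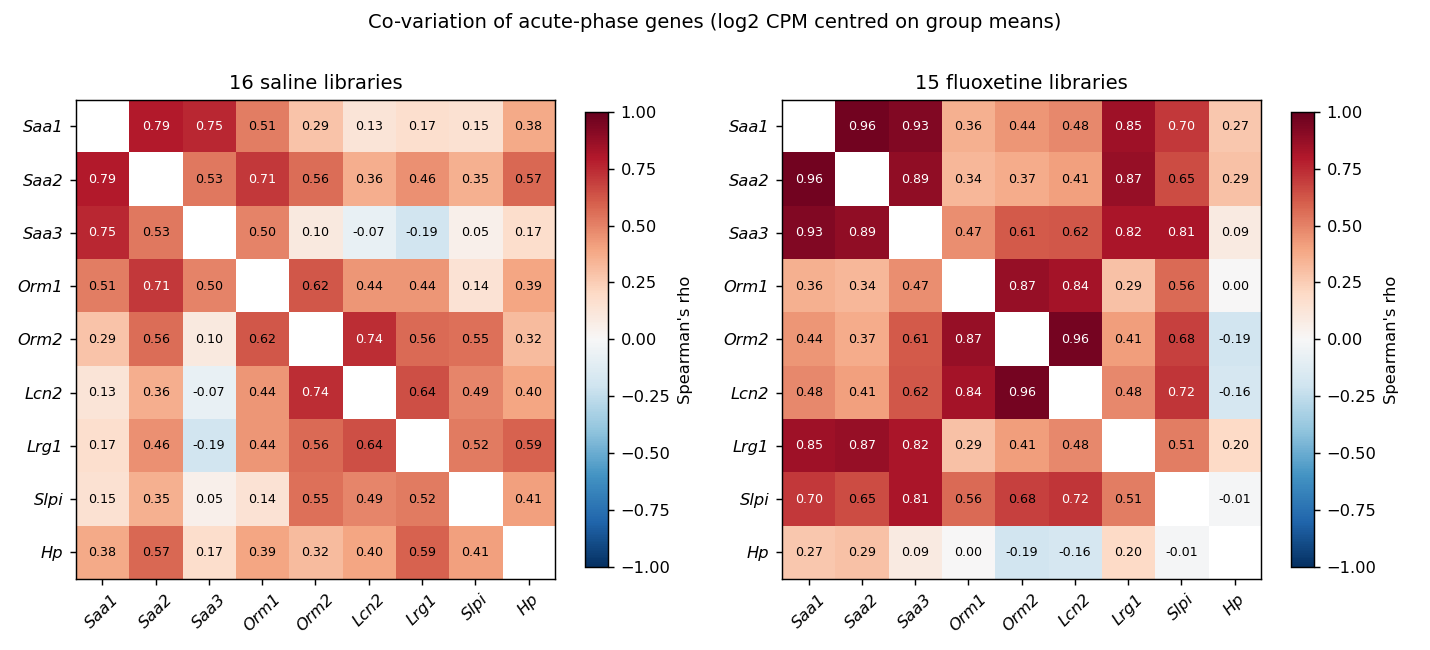
Spearman's rho of each pair of members in 16 saline libraries (left) and 15 fluoxetine libraries (right), colour from -1 to 1, on log2 CPM centred on group means. In fluoxetine libraries *Saa1*, *Saa2*, *Saa3* and *Lrg1* form a block of values of 0.82 and above, and *Orm1*, *Orm2* and *Lcn2* another of 0.84 and above. *Hp* lies between -0.19 and 0.29 in fluoxetine libraries and between 0.17 and 0.59 in saline libraries. Without both libraries of low milk share the serum amyloids have 0.58 to 0.80 with *Orm1*, *Orm2* and *Lcn2* in fluoxetine libraries, and the blocks are no longer apart.

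The share of these abundant genes moved with some members. In the 15 fluoxetine libraries the rho with the share of counts in the 20 most abundant genes was -0.571 for *Saa1*, -0.550 for *Saa2*, -0.464 for *Lrg1* and -0.436 for *Saa3*. It was 0.279 for *Orm1*, 0.10 for *Orm2* and 0.143 for *Lcn2*. In the saline libraries the values were near 0 for *Saa1* (0.003) and between -0.344 and 0.132 for the other members. The saline library highest for the serum amyloids, FA diet + saline replicate 3, nevertheless had the lowest share of the 16 saline libraries, 70.1%. It also had their lowest summed CPM of milk-secreting luminal markers, 488190. Without both libraries of low share, the values in 13 fluoxetine libraries were -0.621 for *Saa1*, -0.533 for *Saa2*, -0.555 for *Saa3* and -0.264 for *Lrg1*. *Orm1*, *Orm2* and *Lcn2* changed sign, to -0.121, -0.209 and -0.121. *Hp* also changed sign, from -0.168 to 0.374. The part of this share in the result was not tested.

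**Figure D4:**
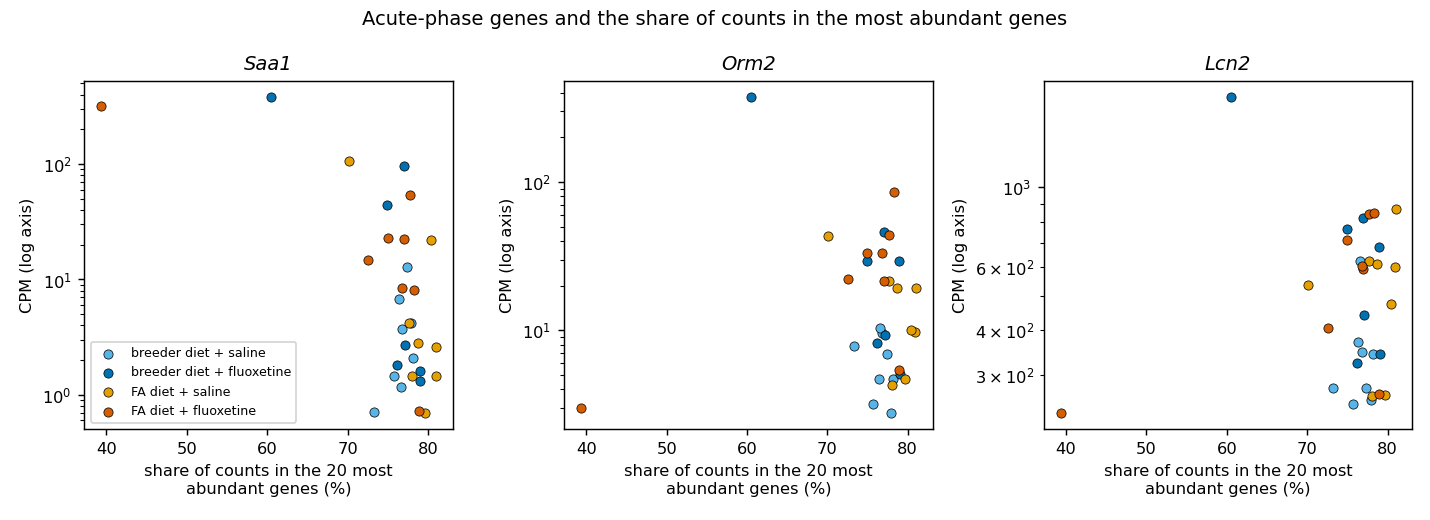
*Saa1*, *Orm2* and *Lcn2* (CPM, log axis) against the percentage of a library's counts in the 20 most abundant genes, 31 libraries coloured by group. The libraries at 39.3% and 60.5% have *Saa1* at 320 and 382 CPM, whereas *Orm2* and *Lcn2* are at their highest in the library at 60.5% and low in the other, and 29 libraries lie at 70.1% or above.

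Markers of other cells were read beside the members. Neutrophil markers, 12 genes, summed to 0.599 to 2.996 CPM in saline and 0.694 to 6.57 CPM in fluoxetine libraries, and 9 of the 12, *Ly6g*, *Cxcr2* and *Mpo* among them, had a median below 0.1 CPM. Of 12 hepatocyte markers 9 had a median below 0.1 CPM, with *Alb* and *Ahsg* at 60 and 16 counts over all libraries and *Ttr* at 0. Macrophage markers, 10 genes, summed to 55.1 to 93.1 CPM in saline and 56.8 to 295 CPM in fluoxetine libraries, with the maximum in FA diet + fluoxetine replicate 3 and 95.3 CPM in breeder diet + fluoxetine replicate 13. Fibroblast markers, 7 genes, reached 1004 CPM in FA diet + fluoxetine replicate 3, against 54.7 to 311 CPM in the other libraries. In fluoxetine libraries *Hp* had a rho of 0.779 with the macrophage sum and of 0.721 with the adipocyte and fibroblast sums, and *Lcn2* had -0.718 with the myoepithelial sum. These were among the largest of many such values. In saline libraries *Hp* had 0.20 with the macrophage, 0.435 with the adipocyte and 0.165 with the fibroblast sum, and *Lcn2* had -0.097 with the myoepithelial sum. The part of these cells in the result was not tested.

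The FA diet was tested in saline dams, where no fluoxetine library that chose the members enters the difference. The spread behind the SEs and p-values was fitted over all 31 libraries, so those fluoxetine libraries do enter it. FA minus breeder diet ranged from 0.11 (*Lrg1*) to 2.13 (*Saa1*) on the log2 scale. The share of positive values over all genes was not counted for this contrast, and single libraries moved several members at once. No common direction is therefore read from the members. None passed an FDR of 10% in edgeR's quasi-likelihood test (0 of 9, against 0% of all genes), and 1 of 9 was at an unadjusted p of 0.05 or below (6.09% of genes). DESeq2, edgeR's likelihood ratio test and a fit of the 16 saline libraries by themselves also called 0 of 9, each with 3 members at that unadjusted p. The share of all genes at that p was not counted for these fits, so nothing is read from those members. *Orm1* was at 0.98 (SE 0.383, adjusted p = 0.812 by edgeR's quasi-likelihood test), and at 0.54 without FA diet + saline replicate 12. *Saa1* was at 2.13 (SE 1.26), *Orm2* at 1.41 (SE 0.744) and *Lcn2* at 0.63 (SE 0.312), with adjusted p from 0.817 to 0.856. The values of the serum amyloids rested on FA diet + saline replicate 3, since without it *Saa1* was at 0.25 (SE 1.19), *Saa2* moved from 1.09 to 0.11 and *Saa3* from 1.07 to -0.49. *Slpi* moved from 0.40 to -0.023 without that library.

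Averaged over saline and fluoxetine dams, FA minus breeder diet includes the fluoxetine libraries that chose the members, and it is described without a test. *Orm1* was at 0.65 (SE 0.275) and *Slpi* at -1.20 (SE 0.556). Without breeder diet + fluoxetine replicate 13 the value of *Slpi* was 0.15, and without FA diet + saline replicate 12 that of *Orm1* was 0.43. The other 7 members had log2 differences of -0.31 (*Lrg1*) to 0.85 (*Saa1*), all smaller than their SE.

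**Figure D5:**
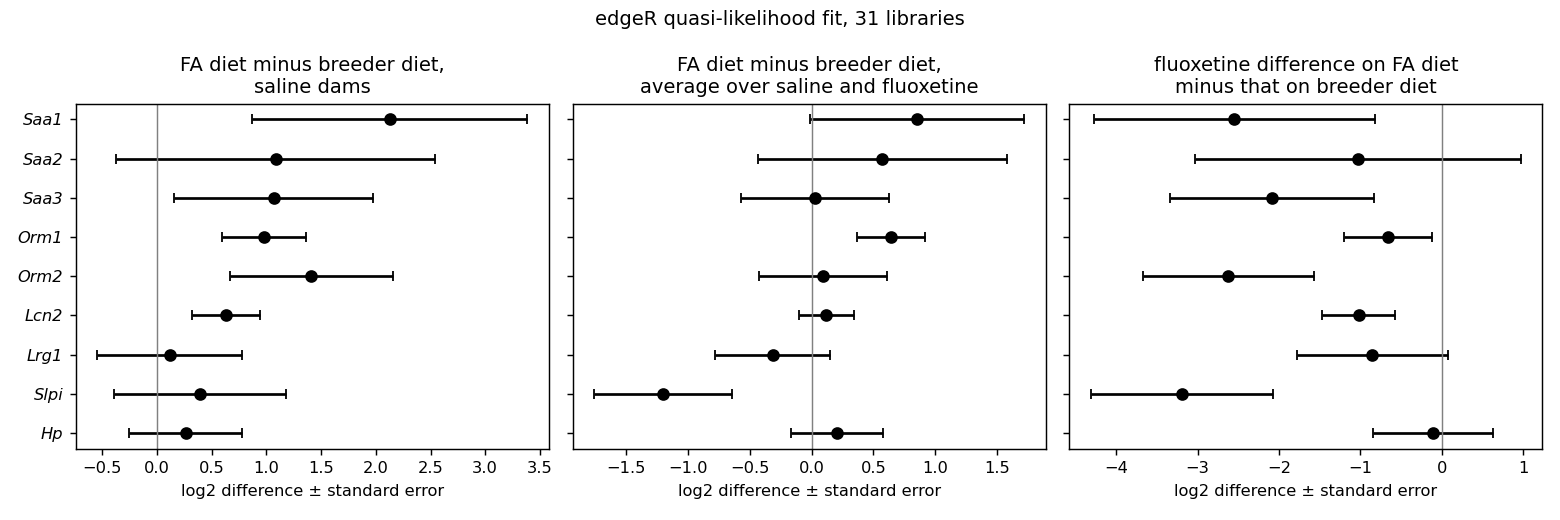
Log2 difference with its SE for each member, for FA minus breeder diet in saline dams (left), for the same averaged over saline and fluoxetine dams (middle) and for the fluoxetine difference on the FA diet minus that on the breeder diet (right), from 1 fit of 31 libraries. In saline dams the points lie between 0.11 (*Lrg1*) and 2.13 (*Saa1*) and none passed an FDR of 10%. At right *Slpi* (-3.19) and *Orm2* (-2.63) lie farthest from 0.

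The interaction, that is the fluoxetine difference on the FA diet minus that on the breeder diet, rests on the fluoxetine libraries that chose the members and is likewise described without a test. Its fitted values were below 0 for all 9 members, while 54.0% of all genes had values above 0. The members vary together, so these are not 9 separate results. For *Slpi* the interaction was -3.19 (SE 1.12), for *Orm2* -2.63 (SE 1.05) and for *Lcn2* -1.02 (SE 0.448). Without breeder diet + fluoxetine replicate 13 they were -0.46, -0.86 and -0.63, so that this library set much of their size.

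The wider acute-phase programme was read from a list of 26 further genes, of which 13 passed the filter, and 0 of them were called for fluoxetine, FA or the interaction, where 0.0209%, 0% and 0% of all genes were called. For fluoxetine 10 of 13 were higher, as were 53.5% of all genes. The median log2 difference was 0.19, against 2.21 for the 9 members and 0.019 for all genes. *C4b*, a complement component, had the highest of these values, 1.504 (SE 0.366, adjusted p = 0.203 by edgeR's quasi-likelihood test), with 733 CPM in breeder diet + fluoxetine replicate 5 and a group median of 31.9 CPM in breeder diet + saline. *Lbp* and *Mt1*, a binder of bacterial lipopolysaccharide and a metallothionein, were at 0.061 and 0.27. *Orm3* was at 0.32 and stayed at or below 3.47 CPM. *Saa4*, *Apcs* and *Crp*, of which the last 2 encode pentraxins of the liver, had 0 counts in 31 libraries.

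The inducers were scarcely counted. Of 12 cytokine genes 2 passed the filter, *Il1b* and *Clcf1*, with fluoxetine differences of -0.30 and 0.26 on the log2 scale, and 0 were called. *Il6* had 41 counts in 2 libraries and *Tnf* 121 counts over all libraries, and *Il17a* and *Il22* had 0. FA diet + fluoxetine replicate 3 had the highest sum of these genes, 9.81 CPM, of which *Lif* was 4.74 CPM. In breeder diet + fluoxetine replicate 13 the sum was 2.23 CPM, near the median of 2.26 over all libraries. Receptors were well measured, with 12 of 13 genes past the filter, 0 called and a median fluoxetine difference of -0.0087. Of 18 signalling and transcription factor genes 16 passed the filter and 0 were called, with a median of 0.11. *Stat3* was at 0.18, *Cebpb* at 0.14 and *Socs3*, a feedback inhibitor of STAT3 signalling, at 0.34 with 17.8 CPM in FA diet + fluoxetine replicate 3. Of 11 receptors and partners of the acute-phase proteins 9 passed the filter, 0 were called and the median was 0.0033.

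The genes whose variation between the 31 libraries was most like that of the members, by the mean of their 9 rho values on centred log2 CPM, were *Wfdc17* (0.513), *Spp1* (0.503), *Agpat4* (0.484), *Txndc12* (0.482), *Gm44250* (0.477), *Mcph1* (0.472), *Scml4* (0.463), *Gsta3* (0.457), *Sectm1b* (0.452) and *Syn2* (0.441). The median over all genes tested was 0.0064, and the 99th percentile was 0.311. *Wfdc17*, a small secreted protein with a WAP domain as in *Slpi*, and *Spp1*, which encodes osteopontin, were highest in breeder diet + fluoxetine replicate 13, at 506 and 5851 CPM. Without both libraries of low milk share, 4 of these 10 genes remained among the first 10, with *Txndc12* first (0.533) and *Cebpb* among the others (0.517). In the 16 saline libraries alone 1 of the 10 (*Agpat4*) was among the first 10, and in the 15 fluoxetine libraries alone 3 were, *Wfdc17*, *Spp1* and *Syn2*.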

How the data were processed

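Mammary gland RNA of 31 dams was measured as 1 library each. The authors trimmed the reads with Trim Galore 0.4.4 (quality check with FastQC 0.11.7), mapped them to GRCm39 with HISAT2 and deposited raw counts per Ensembl gene from HTSeq. The annotation release and strand option are not given in the sources used here. Symbols were taken from GENCODE vM39, which holds 54712 of the 55379 gene rows.

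In edgeR 4.0.16 (R 4.3.3), filterByExpr kept 14362 genes, libraries were scaled by TMM and a model with 4 groups was fitted by the quasi-likelihood method, with Benjamini-Hochberg adjustment over all genes and an FDR of 10%. P-values measure the spread between dams. Log2 CPM carry a prior count of 2. Permutation tests used 100000 resamples. In simulated data of FA averaged over drug (14362 genes) 97% of genes with a log2 change of 1 were recovered, with 6.64% false calls. Every simulated gene had a dispersion of 0.17. The members varied more, with SEs of 0.312 (*Lcn2*) to 1.46 (*Saa2*) for FA in saline dams. The simulation therefore does not show that a change of that size would be found in them. Between libraries of a group the chi-square of the counts was at least 15.8 per degree of freedom, far beyond counting error, and each library was counted as 1 dam.

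The tests planned for FA averaged over drug and for the interaction are given as differences only, since libraries that chose the members enter them. The members and gene lists were chosen with earlier results of these data known. Named genes are the members, the 3 most abundant of each list, and the 10 genes most like the members, and others were named after their values were seen. The limit of 65% for the share of the 20 most abundant genes, the fits without both libraries below it, and the alternatives for FA in saline dams were chosen after seeing the data. Alternatives were DESeq2 1.42.0, the likelihood ratio test, RLE and upper quartile scaling, other filters, no robust estimation, the 20 most abundant genes left out, saline libraries alone, a block on the dam number, and each library left out. Protein sequences were not used here.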

Additional observations from a re-analysis of the deposited data

Results flagged for a closer look

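For each member and group, the highest and the lowest library were compared with the others by Dixon's ratio on log2 CPM, in 36 groups, and 3 values were beyond the 95% limit of 0.526 for groups of 8. Chance gives about 1 in 20 such groups. *Lcn2* was at 624 CPM in breeder diet + saline replicate 3, far above the other 7 libraries of that group (ratio 0.570), which lay between 250 and 370 CPM. *Saa3* was far below the others in that library, at 0.0555 CPM (ratio 0.569), and in FA diet + fluoxetine replicate 5, at 0.327 CPM (ratio 0.558). The high fluoxetine libraries of *Saa1*, *Saa2*, *Orm2* and *Slpi* were not beyond the limit for the size of their group on the log2 scale. That limit was higher for the 7 libraries of breeder diet + fluoxetine than for groups of 8.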

How the results depend on the processing

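For FA in saline dams the count of members called at an FDR of 10% was 0 in every alternative run and when each of the 31 libraries was left out in turn, with 0 to 3 members at an unadjusted p of 0.05 or below. The share of all genes at that p was not counted in these runs. Scaling, filters, DESeq2 and the likelihood ratio test reversed no member's difference. With a block on the dam number, FA in saline dams gave 0.33 for *Saa1* and 0.12 for *Saa3*, log2 differences for FA averaged over drug changed sign for *Saa1* (-0.54), *Saa2* (-0.84) and *Saa3* (-1.10), the interaction of *Hp* became 0.78 and the fluoxetine difference of *Hp* became -0.70. Same-numbered dams were not treated as paired in the main fit. The correlation of their deviations ranged from -0.22 to 0.43 over 28 pairs. Its median was 0.079, against -0.0070 for different-numbered pairs, and 12 of the 28 were above 0.1. Of 27 libraries, 4 correlated best with their own number. These values cannot show whether dams of the same number shared anything. In saline dams, the FA differences of *Lrg1* and *Slpi* were 0.11 and 0.40, against values below 0 in the average. Without both libraries of low milk share, FA in the average gave -0.28 for *Saa2* and 0.18 for *Slpi*, the interaction of *Hp* was 0.12 and its fluoxetine difference -0.27. With each library left out in turn, FA in saline dams ranged from 0.25 to 2.66 for *Saa1*, -0.49 to 1.26 for *Saa3*, -0.063 to 0.71 for *Lrg1* and -0.023 to 0.68 for *Slpi*. FA in the average ranged from -0.085 to 1.66 for *Saa1*, -0.97 to 1.30 for *Saa2*, -0.75 to 0.41 for *Saa3*, -0.11 to 0.98 for *Orm2* and -1.41 to 0.15 for *Slpi*. The fluoxetine difference of *Hp* ranged from -0.082 to 0.49, and the interaction from -0.67 to 0.48 for *Hp* and from -4.10 to 0.32 for *Saa2*. The cause was not tested. Counts of *Saa2* and *Saa3* reached 0 in some libraries, so that depth limits their low values.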
